A study of Mus musculus with 3 samples.

Results

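This account covers 36 genes of the integrated stress response and the unfolded protein response, of 54331 features in the deposited table. They were taken from a list of mouse symbols that was drawn up with earlier results of these data known. The list holds 16 genes of the kind that the transcription factor ATF4 switches on, 15 genes for folding and degradation in the endoplasmic reticulum (ER), and 5 sensors and factors that start the response. Every one of the 36 had a mean of more than 500 normalized counts, so all passed the filter of a mean of at least 10 that left 13877 features for testing.

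RNA was sequenced from RAW 264.7 cells, a male mouse macrophage line of BALB/c background, that received lipopolysaccharide (LPS, a bacterial activator of TLR4) at 100 ng/mL for 5 h. There were 2 libraries labelled GIV-depleted, each carrying a different shRNA against GIV (also called Girdin, gene Ccdc88a), and 1 control library labelled wild-type that carried a control shRNA. LPS was given in all 3 libraries, and no library without LPS was analysed here, so the values show stress-gene levels within the LPS state only. The labels do not say whether the 2 shRNA lines are clones or pools, and nothing in them says that libraries came from separate experiments. The only spread behind any p-value is therefore that between 2 shRNAs. In limma the spread of each gene is also combined with that of all features at a like level.

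The integrated stress response begins when kinases phosphorylate the translation factor eIF2. General protein synthesis is then slowed while translation of ATF4 increases, and ATF4 in turn activates genes for amino acid supply, redox balance and, under prolonged stress, cell death. The unfolded protein response has 3 ER membrane sensors, PERK, IRE1 and ATF6, of which PERK is also an eIF2 kinase and therefore feeds both programmes. IRE1 splices Xbp1 mRNA, and spliced XBP1 and cleaved ATF6 raise ER chaperones. Xbp1 splicing, eIF2 phosphorylation and protein levels cannot be read from a table of 1 value per gene.

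Both programmes are wired by short promoter elements, and some of these sequences are shown here because they describe the members without using any expression value. Windows of 250 bases before to 50 bases after the start, from RefSeq on GRCm38.p6, matched 32 of the 36 symbols, all but Hyou1, Manf, Atf6 and Slc7a5. The ER stress element was searched on both strands as CCAAT, 9 bases of any kind, then CCACG. It was present in 7 of the 13 ER genes with a window (Hspa5, Hsp90b1, Dnajc3, Pdia6, Calr, Canx and Creld2), in 0 of 15 ATF4-type genes, and in 0.119% of all 32851 windows. Its CCACG part alone, which lies inside each full match, was in 13 of 13 ER genes, 11 of 15 ATF4-type genes and 32.8% of all windows. In the lines below, capitals mark the match, and the sequence runs 5′ to 3′ in the direction of the gene. In Calr and Creld2 the element reads in the opposite direction to the gene. The positions are chr2:34772013-34772055 on the plus strand for Hspa5, chr8:84847063-84847105 on the minus strand for Calr, chr12:17266479-17266521 on the plus strand for Pdia6 and chr15:88819508-88819550 on the plus strand for Creld2.
Hspa5: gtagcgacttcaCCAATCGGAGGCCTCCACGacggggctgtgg
Calr: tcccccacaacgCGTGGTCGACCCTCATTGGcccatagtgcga
Pdia6: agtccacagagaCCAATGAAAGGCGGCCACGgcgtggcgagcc
Creld2: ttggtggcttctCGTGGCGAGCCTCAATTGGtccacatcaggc

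The composite element read by ATF4 with C/EBP proteins was searched on both strands as TGATGNAA. It was present in 5 of 15 ATF4-type genes (Atf3, Trib3, Asns, Chac1 and Nupr1), in 1 of 13 ER genes (Herpud1), and in 3.97% of all windows. The cAMP response element TGACGTCA was found in Ppp1r15a alone among the members and in 1.79% of all windows, and TGACGTGG in 0 of the 32 members with a window and in 0.676% of all windows. A match is a description of the letters and does not show binding. Capitals mark the composite element in the lines below, which lie at chr6:7693213-7693244 on the minus strand for Asns, chr2:119351037-119351068 on the plus strand for Chac1, chr7:126625561-126625592 on the minus strand for Nupr1 and chr8:94386305-94386336 on the plus strand for Herpud1. In Chac1, Nupr1 and Herpud1 it reads in the opposite direction to the gene.
Asns: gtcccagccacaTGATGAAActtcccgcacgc
Chac1: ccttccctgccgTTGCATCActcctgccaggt
Nupr1: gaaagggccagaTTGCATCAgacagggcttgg
Herpud1: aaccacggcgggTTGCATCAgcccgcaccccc

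Library totals ranged from 47349097 to 49756670 normalized counts. These are totals after scaling by the authors, so the raw depth of each library is unknown. Ccdc88a had 1734 normalized counts in the shRNA 1-labelled and 2561 in the shRNA 2-labelled library, against 2580 in the control. For mRNA, the label of the second of these was therefore not borne out, and each direction given here for both libraries rests in part on it. The 10 macrophage markers were present in every library, with sums of 360515 normalized counts in the shRNA 1-labelled and 380769 in the shRNA 2-labelled library, against 466996 in the control. Lyz2 and Cd14 made the largest part of each sum. Lyz2 had 121997 in the shRNA 1-labelled and 138145 in the shRNA 2-labelled library, against 199781 in the control. Cd14 had 122965 and 112411 in these libraries, against 119577. Mertk was the lowest marker, at 13.3 and 10.6 in these libraries, against 15.0 in the control. Both libraries were below the control for 6 of the 10 and above it for 1, against 35.2% below and 34.9% above over all features tested. Among the lymphocyte markers Cd3e and Nkg7 were at 0 throughout. The list summed to 13.6 in the shRNA 1-labelled and 39.2 in the shRNA 2-labelled library, against 12.2 in the control. Ms4a1 was the highest of them, with 8.87 in the shRNA 1-labelled and 20.2 in the shRNA 2-labelled library, against 6.56 in the control. Of 8 fibroblast and epithelial markers 3 were at 0 throughout (Epcam, Krt18 and Cdh1), with sums between 1.92 and 6.67. Of 8 neutrophil and mast cell markers 5 were at 0 throughout (Ly6g, Elane, Cpa3, Mcpt4 and Fcer1a), with sums between 46.7 and 101. S100a8 had 45.6 in the shRNA 1-labelled and 75.5 in the shRNA 2-labelled library, against 68.8 in the control. Kit had 1.13 in the shRNA 1-labelled and 24.2 in the shRNA 2-labelled library, against 0.551 in the control. Mitochondrial transcripts made up 0.995% of the shRNA 1-labelled and 1.14% of the shRNA 2-labelled library, against 1.43% of the control. The part of these values and of the lower macrophage marker sum in any result was not tested. In bulk RNA, fewer cells of a type and less RNA per cell cannot be told apart.

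The first comparison sets the libraries labelled GIV-depleted against the control library and asks whether stress-response transcripts of LPS-treated macrophages differ with an shRNA against GIV. Most of the 36 genes lay close to the control, as did most features with a mean of at least 500. Of the 36 genes, 28 differed from the control by less than 25% of the lower value in the shRNA 1-labelled library. In the shRNA 2-labelled library 30 did. Among the 8139 features with a mean of at least 500, 6315 and 6270 did in these libraries. Closeness to the control was thus not particular to the members. A single one of the 36 genes, Eif2ak3, was at least 1.5-fold higher in both libraries. The median log2 difference of the 36 genes, on the log2(normalized count + 1) scale used throughout, was 0.11 in the shRNA 1-labelled and -0.01 in the shRNA 2-labelled library, beside 0.0005 and -0.002 over all features tested. In limma (2 libraries against 1), 0 of the 36 genes and 0 of the 13877 features (0.0%) passed an adjusted p of 0.05. At an unadjusted p under 0.05, 1 of the 36 genes was higher and 0 were lower, against 4.52% higher and 2.42% lower over all features. Both libraries were at least 1.5-fold above the control for 1 of 36 genes (2.78%) and below it for 0, against 5.09% and 2.82% of all features and, among the 8139 features with a mean of at least 500, 2.09% above. These shares lie near or under the background. The design has 1 residual degree of freedom, and an exact permutation test of 2 libraries against 1 could not go below p = 0.33.

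The sensors come first in the pathway. Eif2ak3 (ENSMUSG00000031668.14, chromosome 6, 70844515 to 70905245, GRCm38), which encodes the ER-resident eIF2 kinase PERK, had 760 normalized counts in the shRNA 1-labelled and 592 in the shRNA 2-labelled library, against 330 in the control. The control lay below both others, the shRNA 1-labelled library being 2.30-fold and the shRNA 2-labelled one 1.79-fold above it. On the log2 scale Eif2ak3 differed by 1.02 (SE 0.25; limma, adjusted p = 0.57). Its p before adjustment was 0.014. Over the alternatives the adjusted p in limma ranged from 0.41 to 0.67, and with no filter on low values the unadjusted p was 0.063. Per kilobase of transcript Eif2ak3 had the lowest level of the 36 genes, at 279 in the shRNA 1-labelled and 218 in the shRNA 2-labelled library, against 121 in the control. Ern1, which encodes the IRE1 sensor, had 830 normalized counts in the shRNA 1-labelled and 799 in the shRNA 2-labelled library, against 874 in the control. Atf6, the sensor that is cleaved in the Golgi apparatus, had 6139 in the shRNA 1-labelled and 5810 in the shRNA 2-labelled library, against 5741 in the control. Both differed from the control by less than 0.13 on the log2 scale in either library, so of the 3 sensors Eif2ak3 alone met the 1.5-fold rule.

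Transcripts of the factors themselves, which are controlled largely after transcription, were near the control. Atf4 had 23127 normalized counts in the shRNA 1-labelled and 18920 in the shRNA 2-labelled library, against 19817 in the control. Xbp1 had 13315 in the shRNA 1-labelled and 11818 in the shRNA 2-labelled library, against 13351 in the control. For Atf4 the control lay between the other libraries, and for Xbp1 it was close to the library labelled shRNA 1.

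**Figure D1:**
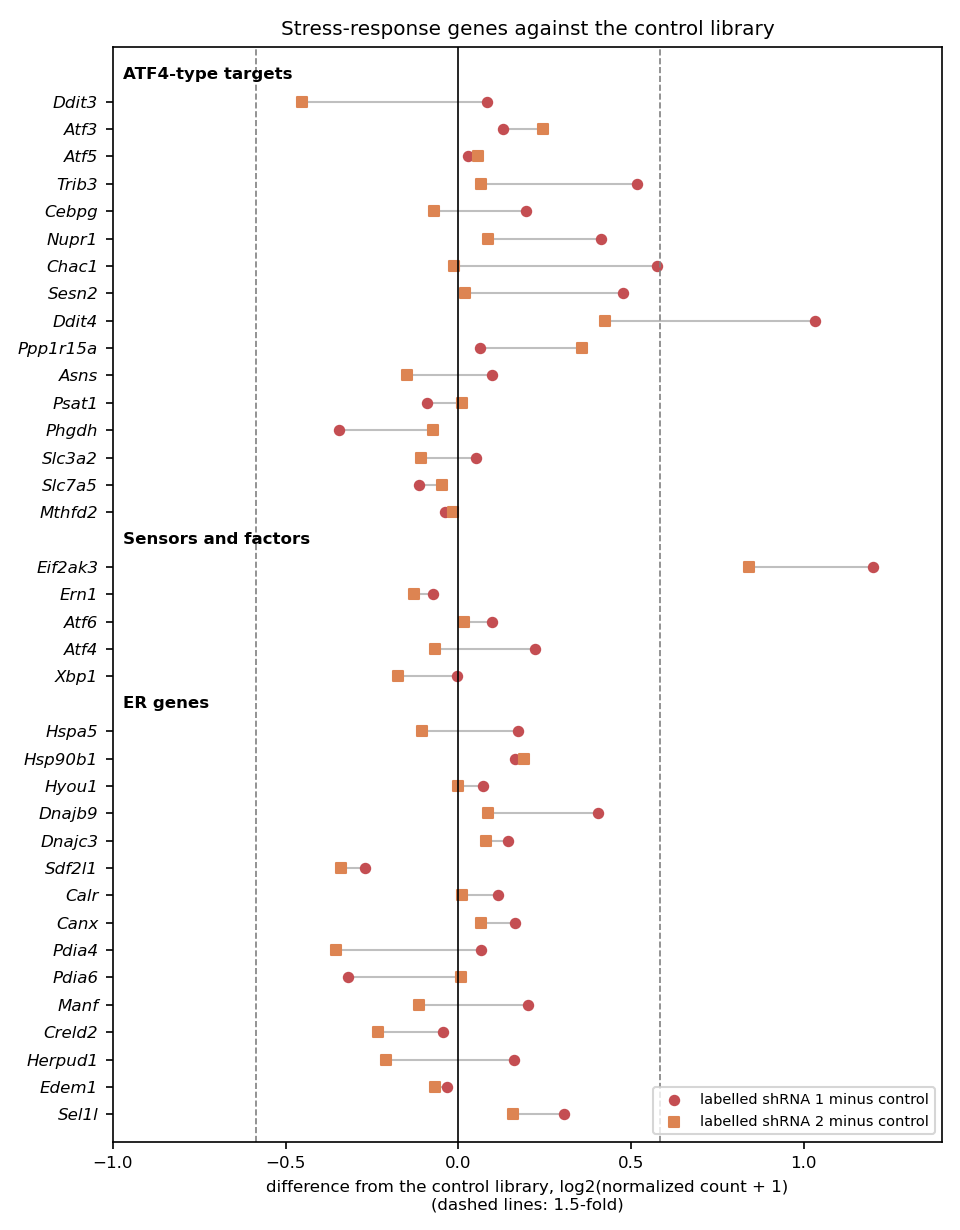
Difference of each library labelled GIV-depleted from the control library, on the log2(normalized count + 1) scale (horizontal axis), for the 36 genes in rows. Circles are the library labelled shRNA 1, squares the library labelled shRNA 2, and dashed lines mark 1.5-fold; Eif2ak3 is the 1 gene with both symbols beyond a dashed line, and Ddit4 has only its circle (1.03) beyond it.

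The regulators among the ATF4-type targets stayed within 1.5-fold of the control in both libraries. Ddit3, which encodes the pro-death factor CHOP, had 1274 normalized counts in the shRNA 1-labelled and 879 in the shRNA 2-labelled library, against 1202 in the control. It was thus 0.45 lower on the log2 scale in the library labelled shRNA 2, while the library labelled shRNA 1 was 0.08 higher. A second protein-coding identifier with the same symbol, with a transcript of 105 bases inside the gene in GENCODE M21, had 4.45 in the shRNA 1-labelled and 5.80 in the shRNA 2-labelled library, against 0.931 in the control. It fell under the filter, and reads of overlapping features cannot be assigned with certainty.

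Atf3, a stress-induced repressor that also limits Toll-like receptor responses, had 10962 normalized counts in the shRNA 1-labelled and 11882 in the shRNA 2-labelled library, against 10029 in the control. Atf5, another factor made under eIF2 phosphorylation, had 1567 in the shRNA 1-labelled and 1600 in the shRNA 2-labelled library, against 1537 in the control. For both genes the control was the lowest library, by at most 0.24 on the log2 scale. Trib3, a pseudokinase that holds ATF4 in check, had 823 in the shRNA 1-labelled and 602 in the shRNA 2-labelled library, against 575 in the control. Nupr1, a small stress-induced transcription regulator, had 9046 in the shRNA 1-labelled and 7204 in the shRNA 2-labelled library, against 6789 in the control. In these 2 genes the library labelled shRNA 1 stood above the other libraries. Cebpg, a C/EBP partner of ATF4, had 2485 in the shRNA 1-labelled and 2066 in the shRNA 2-labelled library, against 2169 in the control. Its control value lay between the others.

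The stress effectors included the ATF4-type target with the widest difference from the control. Ddit4 (REDD1), an inhibitor of mTORC1, had 985 normalized counts in the shRNA 1-labelled and 647 in the shRNA 2-labelled library, against 481 in the control. Both libraries lay above the 1 control, as they did for 34.9% of all features. The library labelled shRNA 1 was 2.05-fold and the library labelled shRNA 2 1.34-fold above the control, and the mean log2 difference was 0.73 (SE 0.32; limma, adjusted p = 0.73). Sesn2, another brake on mTORC1, had 2975 in the shRNA 1-labelled and 2170 in the shRNA 2-labelled library, against 2140 in the control. Chac1, an enzyme that degrades glutathione, had 1018 in the shRNA 1-labelled and 677 in the shRNA 2-labelled library, against 682 in the control. Sesn2 and Chac1 were high in the library labelled shRNA 1 alone, and at 1.49-fold Chac1 lay just short of the 1.5-fold rule there. Ppp1r15a (GADD34), the phosphatase subunit that reverses eIF2 phosphorylation, had 1644 in the shRNA 1-labelled and 2017 in the shRNA 2-labelled library, against 1573 in the control. It was the 1 effector whose higher value was in the library labelled shRNA 2.

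The amino acid and one-carbon genes of the ATF4 programme lay near the control, apart from Phgdh in 1 library. Asns, asparagine synthetase, had 12566 normalized counts in the shRNA 1-labelled and 10606 in the shRNA 2-labelled library, against 11753 in the control. Psat1, of serine synthesis, had 13413 in the shRNA 1-labelled and 14392 in the shRNA 2-labelled library, against 14290 in the control. Phgdh, the first enzyme of serine synthesis, had 6571 in the shRNA 1-labelled and 7942 in the shRNA 2-labelled library, against 8356 in the control. The largest departure among these genes was that of Phgdh in the library labelled shRNA 1, at -0.35 on the log2 scale. Slc3a2, the heavy chain of amino acid transporters, had 12948 in the shRNA 1-labelled and 11593 in the shRNA 2-labelled library, against 12503 in the control. Its partner Slc7a5 had 8484 in the shRNA 1-labelled and 8886 in the shRNA 2-labelled library, against 9184 in the control. Mthfd2, a mitochondrial folate enzyme, had 11106 in the shRNA 1-labelled and 11274 in the shRNA 2-labelled library, against 11397 in the control. Mean differences of the 6 genes ranged from -0.21 to -0.03.

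ER chaperones, which included the most abundant members, stayed near the control. Hspa5 (BiP), the central chaperone of the ER and the gene with the first promoter element shown above, had 131625 normalized counts in the shRNA 1-labelled and 108666 in the shRNA 2-labelled library, against 116806 in the control. Hsp90b1 (GRP94) had 106256 in the shRNA 1-labelled and 108187 in the shRNA 2-labelled library, against 94816 in the control. The control was between the others for Hspa5 and below both for Hsp90b1, whose mean difference was 0.18 (SE 0.14). Calr, a lectin chaperone, had 76318 in the shRNA 1-labelled and 71025 in the shRNA 2-labelled library, against 70481 in the control. Its membrane-bound relative Canx had 52831 in the shRNA 1-labelled and 49351 in the shRNA 2-labelled library, against 47118 in the control. Both were slightly above the control, by at most 0.17 on the log2 scale.

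Hyou1, a nucleotide exchange factor for BiP, had 18804 normalized counts in the shRNA 1-labelled and 17873 in the shRNA 2-labelled library, against 17893 in the control. Dnajb9, a cochaperone that recruits BiP to IRE1, had 1528 in the shRNA 1-labelled and 1225 in the shRNA 2-labelled library, against 1155 in the control. Dnajc3, a cochaperone also known as an inhibitor of eIF2 kinases, had 4578 in the shRNA 1-labelled and 4381 in the shRNA 2-labelled library, against 4148 in the control. Dnajb9 was the ER gene with the highest value relative to the control, at 0.40 on the log2 scale in the library labelled shRNA 1. Sdf2l1, a partner of ER chaperone complexes, had 2641 in the shRNA 1-labelled and 2515 in the shRNA 2-labelled library, against 3183 in the control. It had the lowest mean difference of the ER genes, -0.30 (SE 0.13, adjusted p = 0.73 in limma), with both libraries below the control.

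The protein disulfide isomerases did not share a direction. Pdia4 had 7617 normalized counts in the shRNA 1-labelled and 5690 in the shRNA 2-labelled library, against 7276 in the control. Pdia6 had 19610 in the shRNA 1-labelled and 24601 in the shRNA 2-labelled library, against 24464 in the control. Thus Pdia4 was low in the library labelled shRNA 2 and Pdia6 in the library labelled shRNA 1. Manf, a secreted ER-stress protein, had 7273 in the shRNA 1-labelled and 5845 in the shRNA 2-labelled library, against 6322 in the control. Creld2, another ER-stress-induced secreted protein, had 5060 in the shRNA 1-labelled and 4446 in the shRNA 2-labelled library, against 5222 in the control. Of these 4 genes, Creld2 alone had both libraries on the same side of the control, below it.

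Genes of ER-associated degradation were also near the control, within 0.31 on the log2 scale. Herpud1, a membrane component of the degradation complex, had 5533 normalized counts in the shRNA 1-labelled and 4278 in the shRNA 2-labelled library, against 4950 in the control. Edem1, which marks misfolded glycoproteins, had 8576 in the shRNA 1-labelled and 8358 in the shRNA 2-labelled library, against 8766 in the control. Sel1l, the adaptor of the HRD1 ubiquitin ligase, had 7795 in the shRNA 1-labelled and 7047 in the shRNA 2-labelled library, against 6310 in the control. Sel1l was above the control in both libraries and Edem1 slightly below it, while Herpud1 had the control between the others.

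Levels of different genes were compared per kilobase of transcript. Hspa5 had the highest level, with 41885 normalized counts per kilobase in the shRNA 1-labelled and 34579 in the shRNA 2-labelled library, against 37170 in the control. Hsp90b1 and Calr followed in that order of mean level, and the ranges of the 3 genes over libraries overlapped. Canx, Atf4 and Pdia6 came next at 9016 to 13407 per kilobase. Trib3 and Ddit4 had the lowest levels above Eif2ak3, between 274 and 562 per kilobase. The 15 ER genes together made up 0.917% of all normalized counts in the shRNA 1-labelled and 0.894% in the shRNA 2-labelled library, against 0.853% in the control. The 16 ATF4-type targets made up 0.197% in the shRNA 1-labelled and 0.199% in the shRNA 2-labelled library, against 0.193% in the control.

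**Figure D2:**
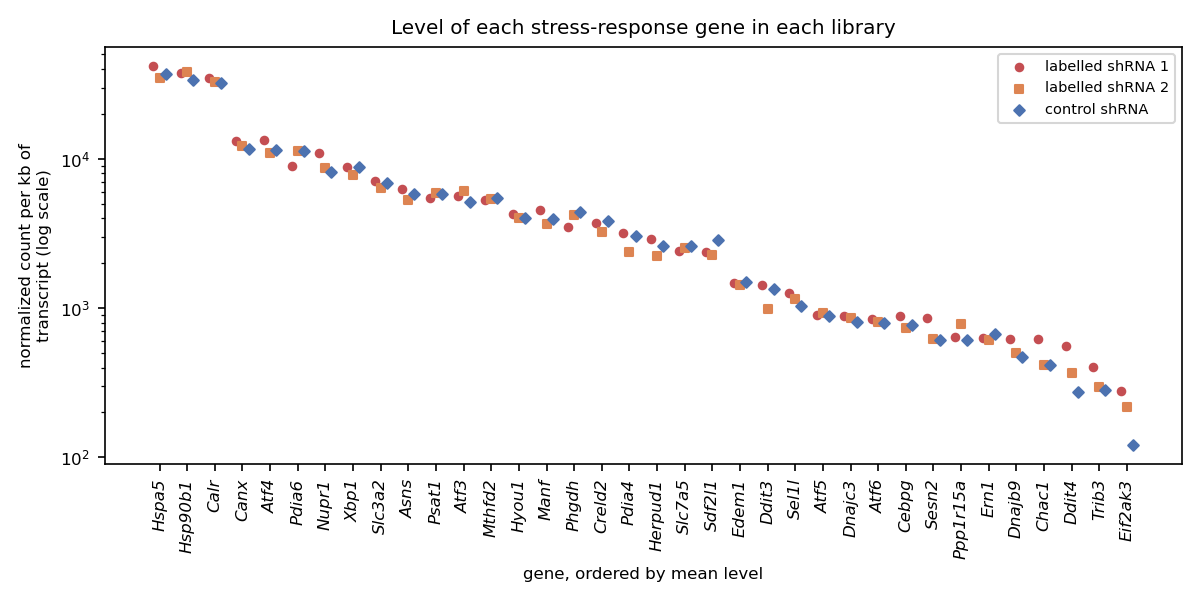
Level of each of the 36 genes per kilobase of transcript (vertical axis, log scale), ordered by mean level, in the library labelled shRNA 1 (circles), the library labelled shRNA 2 (squares) and the control library (diamonds). Hspa5, Hsp90b1 and Calr are the highest, and Eif2ak3 the lowest, with its control value of 121 below the other libraries.

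Set side by side, the ATF4-type targets and the ER genes differed little from the control and from each other. The median log2 difference of the 16 ATF4-type targets was 0.09 in the shRNA 1-labelled and -0.0008 in the shRNA 2-labelled library, and over both it was 0.05. For the 15 ER genes it was 0.14 in the shRNA 1-labelled and -0.0016 in the shRNA 2-labelled library, and over both 0.04. The ATF4-type median minus the ER median was -0.05 in the shRNA 1-labelled library, 0.0008 in the shRNA 2-labelled library and 0.02 over both. The 2 libraries share 1 control, so these values are not independent. Both libraries were above the control for 7 of 16 ATF4-type targets (43.8%) and 6 of 15 ER genes (40.0%), against 34.9% of all features, and below it for 3 of each list, against 35.2%. In the library labelled shRNA 1, 1 of 16 ATF4-type targets (Ddit4) and 0 of 15 ER genes were at least 1.5-fold higher, against 8.83% of all features, and 0 of either list were 1.5-fold lower, against 7.85%. In the library labelled shRNA 2, 0 of either list were 1.5-fold higher or lower, against 9.99% and 7.19% of all features. All members have a mean of at least 500, and of the 8139 such features a smaller share met the rule. They numbered 338 higher and 195 lower in the shRNA 1-labelled library, and 326 higher and 221 lower in the shRNA 2-labelled library.

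The lists differed in base composition. Transcripts of the ATF4-type targets had a median length of 1977 bases and a median GC content of 55.8%, those of the ER genes 2461 bases and 47.7%, and all features tested 2499 bases and 49.5%. With the trend of each difference over length and GC content removed, the ATF4-type median was 0.18 in the shRNA 1-labelled and 0.08 in the shRNA 2-labelled library, and the ER median was 0.09 in the shRNA 1-labelled and -0.04 in the shRNA 2-labelled library. On that scale 4 ATF4-type targets (Trib3, Chac1, Sesn2 and Ddit4) were at least 1.5-fold higher in the library labelled shRNA 1, against 1 as deposited. Over all features that share was 8.85% with the trend removed. The part of base composition in the deposited values was not tested further.

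The second comparison sets the library labelled shRNA 2 against the library labelled shRNA 1. It has 1 library on each side and no test. Several ATF4-type regulators and effectors were lower in the library labelled shRNA 2, while the amino acid genes of the same programme had a median near 0. A gene was counted here when the higher library exceeded the lower by at least 25%, a rule set after the values were seen. By it 9 of the 36 genes (25%) were lower and 1 (2.78%), Pdia6, was higher, against 9.4% lower and 8.66% higher among the 8139 features with a mean of at least 500. The 9 genes were Ddit4, Chac1, Ddit3, Sesn2, Trib3, Pdia4, Herpud1, Eif2ak3 and Nupr1. They comprise 6 of 16 ATF4-type targets (37.5%), 2 of 15 ER genes (13.3%) and 1 sensor. Nupr1 at -0.33 lay just inside the rule, and Dnajb9 and Manf at -0.32 just outside. On the higher side Ppp1r15a at 0.29 and Phgdh at 0.27 fell short of the rule. Equal column totals raise every value of shRNA 2 minus shRNA 1. With them 5 ATF4-type targets and 1 ER gene met the rule as lower. Eif2ak3 then fell outside it, at 1.18 above the control in the shRNA 1-labelled and 0.89 in the shRNA 2-labelled library. The split of lower and higher genes thus depends on the scaling. By the 1.5-fold rule, 2 of the 36 genes were lower (Ddit4 and Chac1) and 0 higher, against 6.54% and 8.96% of all features. Of the 8139 features with a mean of at least 500, as all members have, a smaller share met the 1.5-fold rule. Of these, 181 were lower and 194 higher. The library labelled shRNA 1 is the one with the lower Ccdc88a value, and the part of that difference was not tested.

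The median log2 difference, shRNA 2 minus shRNA 1, was -0.20 for the ATF4-type targets and -0.10 for the ER genes, beside -0.003 for all features tested and -0.02 for those with a mean of at least 500. By role, it was -0.30 for the 6 regulators, -0.52 for the 4 stress effectors and 0.04 for the 6 amino acid and one-carbon genes. These role groups were set after the values were seen, so the split is a description only. The groups were mixed, with Atf3, Atf5 and Ppp1r15a higher, and Asns and Slc3a2 lower, in the library labelled shRNA 2. Among the ER genes, 13 of 15 were lower in the library labelled shRNA 2, the exceptions being Hsp90b1 and Pdia6, against 50.5% of all features and 54.9% of those with a mean of at least 500. With equal column totals 10 of 15 were lower, as with quantile normalization. With equal totals the ER median was -0.03 and the ATF4-type median -0.13. Lower values were not particular to the members. In the further lists described below, the medians as deposited were -0.35 for cytosolic heat-shock genes and -0.31 for other ATF4 and CHOP genes. They were -0.20 for unfolded protein response regulators, -0.16 for aminoacyl-tRNA synthetases, -0.09 for other degradation genes and -0.04 for other ER folding genes. They were 0.004 for eIF2 phosphorylation, 0.03 for other amino acid genes and 0.10 for mitochondrial chaperones. Of the genes with the composite element in their promoter window, Chac1 was lower in the library labelled shRNA 2 by 0.59, Herpud1 by 0.37, Trib3 by 0.45 and Nupr1 by 0.33. Asns, which carries the element too, was lower by 0.24, and Atf3, which also carries it, was 0.12 higher. ATF4-type targets with no match in their window were mixed. Ddit4 was lower by 0.61, Ddit3 by 0.54, Sesn2 by 0.46, Cebpg by 0.27 and Slc3a2 by 0.16. Ppp1r15a was higher by 0.29, Phgdh by 0.27, Psat1 by 0.10, Atf5 by 0.03 and Mthfd2 by 0.02. Whether the element has a part in the difference was not tested.

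**Figure D3:**
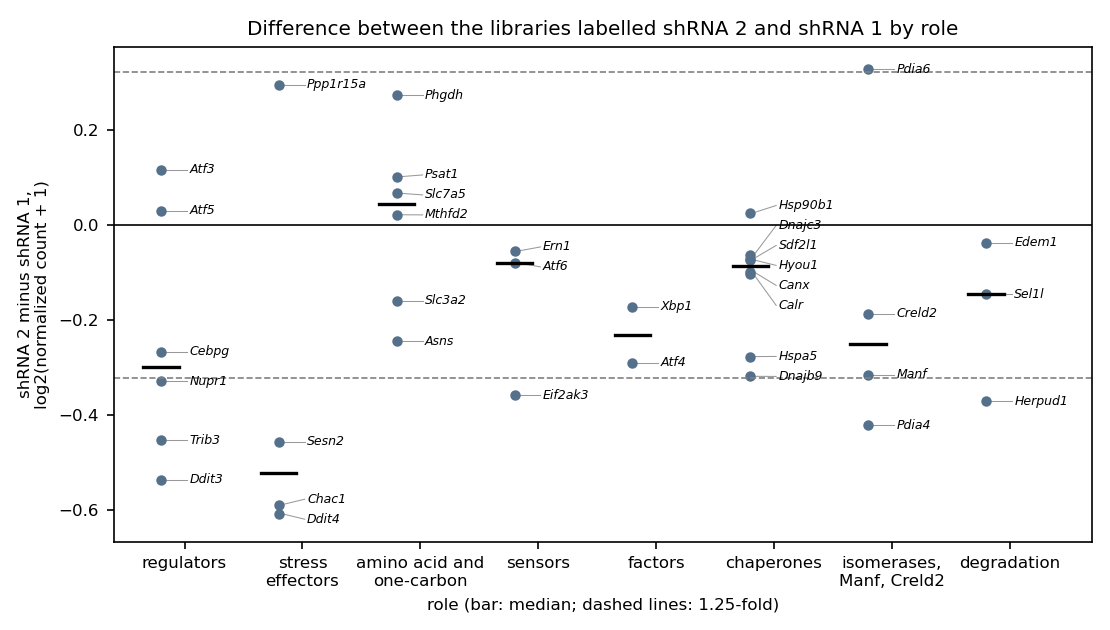
Difference between the library labelled shRNA 2 and the library labelled shRNA 1 on the log2(normalized count + 1) scale (vertical axis) for the 36 genes, grouped by role. The role groups were set after the values were seen. Bars are medians and dashed lines mark the 25% rule; regulators and stress effectors have medians of -0.30 and -0.52, and amino acid and one-carbon genes 0.04.

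Other genes of the pathway were described from 7 further lists. Of their 87 genes 83 passed the filter. In limma 0 passed an adjusted p of 0.05, and at an unadjusted p under 0.05, 4 were higher and 0 lower (4.82% and 0, beside 4.52% and 2.42% of all features). The 4 were Iars, Slc1a4, Stc2 and Sil1. Both libraries were at least 1.5-fold above the control for 2 genes (2.41%), Stc2 and Sil1, and below it for 1, Fkbp14, against 5.09% and 2.82% of all features. The largest mean difference was that of Stc2, which encodes a secreted stress-induced glycoprotein, with 434 normalized counts in the shRNA 1-labelled and 738 in the shRNA 2-labelled library, against 168 in the control. Its mean log2 difference was 1.75 (SE 0.39, adjusted p = 0.52 in limma). It was the 1 gene at 1.5-fold in both libraries of the 9 tested in the list of other ATF4 and CHOP genes, whose medians were 0.28 in the shRNA 1-labelled and -0.02 in the shRNA 2-labelled library. Vldlr, Gdf15 and Fgf21 of that list, and Derl3 of the degradation list, were under the filter.

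The upstream machinery and amino acid supply genes lay mostly near the control. The 11 genes of eIF2 phosphorylation had medians of 0.03 for both libraries. Within them Eif2b4 had 1399 normalized counts in the shRNA 1-labelled and 1264 in the shRNA 2-labelled library, against 1029 in the control, whereas Eif2b2, another subunit of the same exchange factor, had 1516 in the shRNA 1-labelled and 1613 in the shRNA 2-labelled library, against 2012 in the control. The 12 aminoacyl-tRNA synthetases, which charge tRNAs and are common ATF4 targets, had medians of 0.16 in the shRNA 1-labelled and -0.02 in the shRNA 2-labelled library. Iars, for isoleucine, had 16873 in the shRNA 1-labelled and 15923 in the shRNA 2-labelled library, against 10928 in the control, a mean log2 difference of 0.58 (SE 0.12; limma, adjusted p = 0.50). Sars, for serine, had 18552 in the shRNA 1-labelled and 15977 in the shRNA 2-labelled library, against 14542 in the control. The 13 other amino acid genes had medians of 0.12 in the shRNA 1-labelled and 0.25 in the shRNA 2-labelled library. The largest mean difference there was that of Slc1a4, a neutral amino acid transporter, with 729 in the shRNA 1-labelled and 587 in the shRNA 2-labelled library, against 402 in the control. Gpt2, a mitochondrial alanine aminotransferase, had 1134 in the shRNA 1-labelled and 935 in the shRNA 2-labelled library, against 729 in the control.

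Among 18 other ER folding and translocation genes, medians were -0.01 in the shRNA 1-labelled and 0.07 in the shRNA 2-labelled library. Sil1, an exchange factor for BiP, had 850 normalized counts in the shRNA 1-labelled and 1159 in the shRNA 2-labelled library, against 526 in the control. Fkbp14, a peptidyl-prolyl isomerase, had 87.5 in the shRNA 1-labelled and 28.8 in the shRNA 2-labelled library, against 148 in the control. Both libraries lay above the 1 control for Sil1, as for 34.9% of all features, and below it for Fkbp14, as for 35.2%. The 11 tested genes of other ER-associated degradation had medians of 0.04 in the shRNA 1-labelled and -0.04 in the shRNA 2-labelled library. Os9, a lectin of the degradation pathway, had 3492 in the shRNA 1-labelled and 3469 in the shRNA 2-labelled library, against 4406 in the control. The 9 regulators of the unfolded protein response had medians of -0.08 in the shRNA 1-labelled and -0.14 in the shRNA 2-labelled library. Creb3l2, an ER-anchored transcription factor, had 347 in the shRNA 1-labelled and 231 in the shRNA 2-labelled library, against 422 in the control, and Wfs1, an ER membrane protein, had 141 in the shRNA 1-labelled and 116 in the shRNA 2-labelled library, against 154 in the control.

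Stress programmes outside the ER were set beside these genes with 0 calls at an adjusted p of 0.05. The 8 tested cytosolic heat-shock genes had medians of 0.18 in the shRNA 1-labelled and -0.17 in the shRNA 2-labelled library. Hspa1b, an inducible heat-shock protein, had 4590 normalized counts in the shRNA 1-labelled and 1657 in the shRNA 2-labelled library, against 4249 in the control. It was low in the library labelled shRNA 2 alone, and its value is uncertain because Hspa1a is a near-identical copy. Hsp90aa1, a stress-inducible cytosolic chaperone, had 141562 in the shRNA 1-labelled and 119559 in the shRNA 2-labelled library, against 100981 in the control. The 7 mitochondrial chaperones and proteases had medians of -0.01 in the shRNA 1-labelled and 0.07 in the shRNA 2-labelled library. Hspd1, the mitochondrial chaperonin, had 75265 in the shRNA 1-labelled and 80704 in the shRNA 2-labelled library, against 67805 in the control, and the mitochondrial chaperone gene Trap1 had 5709 in the shRNA 1-labelled and 6515 in the shRNA 2-labelled library, against 6766 in the control.

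**Figure D4:**
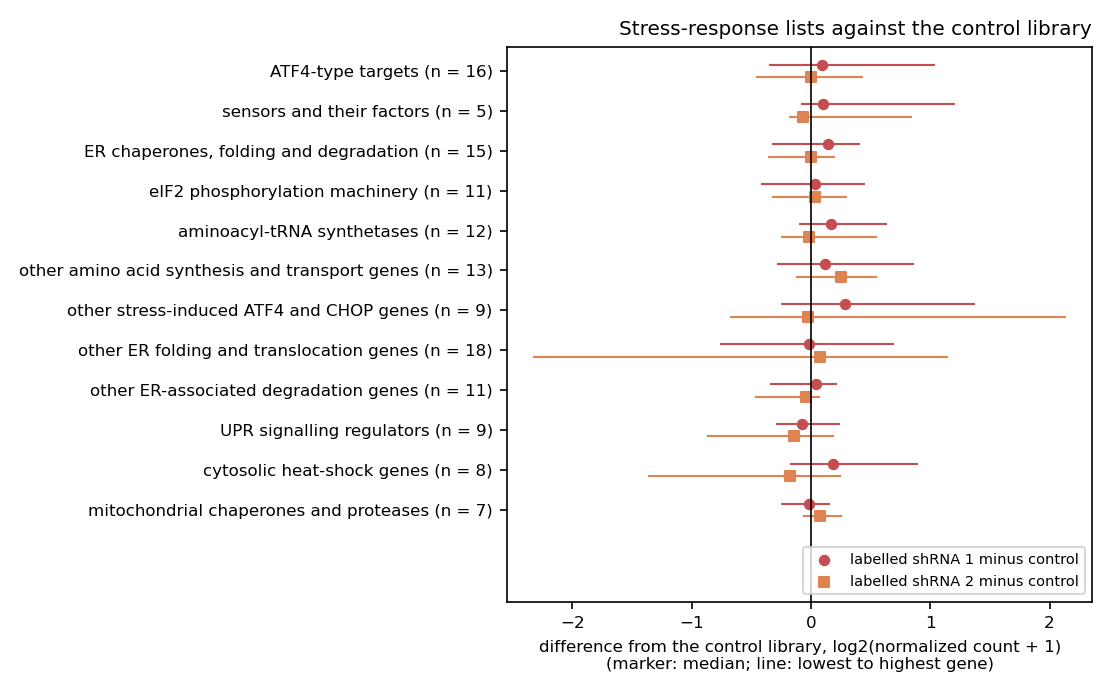
Median (marker) and range (line) of the log2(normalized count + 1) difference from the control library (horizontal axis) for the 3 member lists and 9 further lists, with the number of tested genes. Circles are the library labelled shRNA 1 and squares the library labelled shRNA 2; all medians lie between -0.17 and 0.28.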

How the data were processed

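The table holds normalized counts per gene, 1 column per library, deposited by the authors and treated as a signal that is never negative, not as raw counts. Salmon, DESeq and DESeq2 and the build GRCm38 are listed in the submitters' processing notes, with no version and no role; the sources used here do not give the annotation that was counted. Of values up to 50 times the commonest lowest value, 50.7% to 61.9% per library were whole multiples of it within 0.02, too few to recover reads, so no count model was fitted. Libraries were made with a stranded mRNA kit, per the labels' protocols.

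Groups and shRNA numbers came from sample titles. Identifiers were matched to symbols (54097 matched, 234 did not), and positions, length and GC content came from GENCODE M21 (median over basic protein-coding transcripts). The 13877 features with a mean of at least 10 entered a limma 3.58.1 model (R 4.3.3; eBayes with a mean-variance trend) of log2(normalized count + 1), two-sided, with Benjamini-Hochberg adjustment. The lone control is assumed to vary like the 2 other libraries. Differences on this scale understate changes of low genes. Whole-table fits were tested on simulated data. The 1.5-fold rule applies to single libraries. The genes, lists and role groups were chosen with earlier results of these data known. The role groups, the 25% rule between shRNAs and the minimum mean of 500 were set after the values were seen. All 36 members are named. From each further list up to 3 genes per direction at 1.5-fold in both libraries are named, ranked by the smaller difference, or otherwise the 2 with the largest mean difference. Alternatives covered the pseudocount, filter, scaling, length and GC trend, variance trend, fold rule and each library labelled GIV-depleted. Protein sequences were not used here. Some genes that these rules would name are not reported here.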

Additional observations from a re-analysis of the deposited data

How the results depend on the processing

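No paired analysis was possible because there was 1 control library for 2 libraries labelled GIV-depleted. Counts of ATF4-type targets and ER genes at 1.5-fold in both libraries stayed at 0 in each direction under every scaling, filter and pseudocount tried and at 2-fold. At a difference of 25% 1 ATF4-type target (Ddit4) was higher in both. Leaving out either library labelled GIV-depleted gave 0 to 1 ATF4-type targets higher and 0 for the other counts; without the library labelled shRNA 2 the 1 gene is Ddit4. Features past an adjusted p of 0.05 numbered 1, in place of 0, at a mean of at least 50, with equal totals, with the length and GC trend removed and with the median of abundant features removed (added after seeing the data); members numbered 0 in each. With 1 library labelled GIV-depleted left out no residual degree of freedom remains, so limma was not run. The length and GC trend moved the ATF4-type median from 0.05 to 0.13. The ATF4-type minus ER difference of medians, 0.02 in the main analysis, was 0.12 with that trend removed and -0.060 with quantile normalization. Leaving out 1 library gave -0.0008 to 0.09 for the ATF4-type median, -0.0016 to 0.14 for the ER median and -0.052 to 0.00078 for the difference of ATF4-type and ER medians; the cause was not tested. With both libraries kept, the sign of the mean difference changed in at least 1 setting for 6 members (Slc3a2, Slc7a5, Atf6, Hspa5, Herpud1 and Dnajc3), each with a main value within 0.11 of 0. For 13 members, Ddit3 and Chac1 among them, the control lay between both libraries, so their sign depends on which library is left out. Eif2ak3 stayed at least 1.5-fold higher in both libraries under each scaling, filter and pseudocount. With 1 control, no value of it has a replicate error.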
